A study of Mus musculus with 16 samples.

Results

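Oxidative phosphorylation was followed through 53 genes of 27179 in the table: 40 nuclear genes for subunits of the respiratory chain and ATP synthase, and the 13 protein-coding genes of mitochondrial DNA. The members were chosen by name, with earlier results of these data known. Every one was found through its gene ID, and all 53 passed the filter on low values (10 or more normalised reads in at least 4 of the 8 libraries of a comparison). In both changes of culture medium studied, the 2 genomes moved apart among these members: those called lower were all nuclear and those called higher were all mitochondrial. In AKP organoids 25 of the 40 nuclear members were called lower, against 25.7% of all genes, and 5 mitochondrial ones higher, against 27.0%. In APT organoids these were 20, against 21.7%, and 6, against 26.8%. In some runs on fewer libraries, given below, such shares were near or below those of all genes. The nuclear counts belong to the chosen members. Outside the list, 4 of 16 complex I subunits and 6 of 16 complex V genes were called lower in AKP organoids. In APT organoids these were 3 and 7, with 1 complex I subunit higher. The complex I counts are near the shares of all genes called lower. None of 2 tested complex III and 5 complex IV subunits was called.

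The respiratory chain sits in the inner mitochondrial membrane, where complexes I and II pass electrons to coenzyme Q, complex III passes them to cytochrome c, and complex IV passes them to oxygen. Complexes I, III and IV pump protons, and complex V (ATP synthase) makes ATP from the gradient. Complex II is encoded wholly in the nucleus, whereas complexes I, III, IV and V join subunits translated in the cytosol and imported with subunits transcribed from mitochondrial DNA and translated on mitochondrial ribosomes, and the gut epithelium depends on these complexes as its cells leave the stem cell zone.

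The 16 poly(A)-selected RNA-seq libraries came from mouse tumour organoids, epithelial cultures grown as 3-dimensional structures in basement membrane extract. The lines MTO54 and MTO220 are labelled AKP, triple mutant with wild-type Tgfbr2, and the lines MTO100 and MTO101 are labelled APT, also triple mutant; by the usual reading of these names, which the labels do not spell out, all 4 lines carry lesions in Apc and Trp53, and APT lines a further one in Tgfbr2. Full medium held EGF at 50 ng/ml, noggin at 100 ng/ml and the TGF-beta receptor inhibitor galunisertib at 1 µM, and was sampled at day 4. At day 7, AKP lines had been grown without galunisertib and with TGFβ1 (5 ng/ul as labelled), and APT lines without EGF, so the medium cannot be told apart from the 3 further days. Each line and medium has 2 libraries, pool 1 from the earlier and pool 2 from the next passage. The passages were 14 and 15 for MTO54, 10 and 11 for MTO220 and for MTO100, and 8 and 9 for MTO101. In the media comparisons p-values measure the spread between passages of these lines, along with any difference in response between lines. In the genotype comparison they measure the spread between lines, and in the pool comparisons the spread of the pool difference over lines.

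Reads assigned to genes ranged from 17056053 to 22251986 per library. The epithelial marker list summed to between 101230 and 236650 normalised reads, with all 9 genes present, but single markers moved with the media. In AKP Cdh17 (-2.59 on the log2 scale), Cdx2 (-1.59), Vil1 (-0.89) and Cldn7 (-0.60) were called lower with TGF-beta, and Epcam (0.87) and Krt8 (0.50) higher. In APT Cdh17 (-2.01), Cdx2 (-1.28) and Cldn7 (-0.63) were called lower without EGF. The 7 fibroblast markers summed to 13.8 to 26.8 in AKP full medium and 140 to 203 with TGF-beta, and to 17.0 to 157 in APT full medium and 105 to 513 without EGF, with Lum at 0 throughout. The 6 immune markers summed to 33.9 to 93.3 and 84.9 to 98.9 in AKP and to 31.8 to 103 and 80.3 to 105 in APT, full medium first. The 5 muscle markers summed to 2180 to 2382 and 2893 to 3641 in AKP and to 1748 to 2154 and 1207 to 1862 in APT, and the 4 endothelial markers to 55.2 to 1255 and 33.3 to 50.0, and 156 to 301 and 267 to 873. Most of the muscle sum was Acta1, with means of 2256 and 3077 in AKP and of 1903 and 1525 in APT, full medium first. Trp53 RNA ran from 1916 to 4207 normalised reads across the libraries labelled MTO220 but from 91.2 to 252 across all others, so MTO220 did not show the low RNA of the other lines; results for AKP are therefore also given for MTO54 alone. Extracted RNA was between 423 and 2344 ng/µl in AKP full medium, 87.8 and 1536 with TGF-beta, 168 and 1586 in APT full medium, and 13.2 and 354 without EGF. The part of yield, of these markers and of depth in the results was not tested. In bulk RNA, fewer cells of a type and less RNA per cell cannot be told apart.

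Mitochondrial genes lie nearly end to end, and some overlap, so that neighbours share bases that a read can come from. The 3 overlaps among members are printed from the + strand of mm10, with the shared bases in capitals, because they bear on which member values are independent. ATP8 and ATP6, subunits of ATP synthase, share 43 bases, ND4L and ND4 of complex I share 7, and ND5 shares 14 with ND6. ND6 is the mitochondrial member read from the other strand. These unstranded libraries do not give the strand of a read, so reads over the whole of ND6 may come from either strand.
ATP8 and ATP6, MT:7915-7981, + strand: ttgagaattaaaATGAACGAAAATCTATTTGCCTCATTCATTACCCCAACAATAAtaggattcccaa
ND4L and ND4, MT:10155-10185, + strand: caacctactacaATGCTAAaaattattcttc
ND5 and ND6, MT:13540-13577, + strand: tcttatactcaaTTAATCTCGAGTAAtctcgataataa

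A further limit is set by nuclear copies. By alignment to annotated pseudogenes, 9 of the 13 mitochondrial members and 9 of the 40 nuclear members had a copy at least 95% identical over at least 100 bases. Copies without a mismatch covered 783 bases of COX3, 678 of ATP6, 876 of ND4 and 294 of ND4L, and 1 mismatch separated ND3 from its copy over 345 bases. ND1, ND6, CYTB and ATP8 had no such copy. The nuclear members with one were Ndufab1, Ndufb3, Ndufs3, Ndufs6, Uqcrb, Cycs, Cox6c, Cox7b and Atp5o. How the authors' counting shared reads between such copies is not given in the sources used here, so these members' values are uncertain to that extent.

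RefSeq promoters (GRCm38.p6, 250 bases before to 50 after the first listed start) were matched for 30 of the 40 nuclear members. Binding motifs of factors known for respiratory genes were searched on both strands. The ETS motif CCGGAAG, bound by GABP, lay in 6 of the 30 (20.0%), against 9.12% of 27025 promoters. The YY1 motif AAGATGGC lay in 4 of the 30 (13.3%), against 2.88%, and the palindromic NRF1 motif in 1 of the 30, against 0.977%. Of the other motifs searched, CCAAT lay in 10 of the 30, against 37.9% of all promoters, TGACGTCA (bound by CREB) in 3, against 1.88%, and the E-box CACGTG in 1, Ndufv1, against 7.24%. The printed windows show the ETS, YY1 and NRF1 motifs in capitals on the gene's own strand, with the first ETS match of each promoter, an ETS motif being written CTTCCGG where it lies on the other strand. They are shown because they put letters from promoters of several complexes side by side: the 6 ETS windows come from complexes I, II and IV, and in Ndufa9, Ndufb8, Ndufs6 and Ndufs7 the YY1 motif lay 25 to 39 bases from the start. A match is a description of the letters and no evidence of binding.
Ndufs3, chr2:90904732-90904758, - strand: ccgcgtccgcCCGGAAGaagagtcact
Ndufs8, chr19:3912743-3912769, - strand: taggctccgcCTTCCGGttgaaccgca
Ndufb7, chr8:83566728-83566754, + strand: cctagatgacCCGGAAGacactgaagg
Sdhb, chr4:140961267-140961293, + strand: ctcggagaaaCCGGAAGcggccttcca
Sdhd, chr9:50603879-50603905, - strand: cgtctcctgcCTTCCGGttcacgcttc
Cox8a, chr19:7217605-7217631, - strand: ttccgaaataCTTCCGGctcgggcgtc
Ndufa9, chr6:126849098-126849125, - strand: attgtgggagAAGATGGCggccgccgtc
Ndufb8, chr19:44555393-44555414, - strand: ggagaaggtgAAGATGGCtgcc
Ndufs6, chr13:73328433-73328459, - strand: ggtcaccggcAAGATGGCggcggtgct
Ndufs7, chr10:80249463-80249490, + strand: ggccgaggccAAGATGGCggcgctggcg
Uqcrc1, chr9:108936668-108936697, + strand: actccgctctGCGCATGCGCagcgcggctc

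Summed over their members, the 2 genomes took different shares of the libraries in each medium. The 13 mitochondrial members held 1.48% ± 0.137 of normalised reads in AKP full medium and 2.09% ± 0.217 with TGF-beta, and 1.76% ± 0.124 in APT full medium and 3.02% ± 0.628 without EGF (SD, n = 4). The 40 nuclear members held 0.836% ± 0.101 and 0.574% ± 0.0633 in AKP, and 0.972% ± 0.112 and 0.713% ± 0.0460 in APT, in the same order. In both genotypes the libraries of the 2 media did not overlap in either share. The ratio of the mitochondrial to the nuclear sum was 1.80 ± 0.332 in AKP full medium and 3.70 ± 0.682 with TGF-beta, and 1.82 ± 0.138 in APT full medium and 4.26 ± 0.971 without EGF. Between libraries of the same line and pool, the ratio was higher in the altered medium by 1.36-fold (MTO54, pool 2) to 2.91-fold (MTO220, pool 1) in AKP, and by 1.92-fold (MTO100, pool 2) to 2.78-fold (MTO101, pool 2) in APT. A sum over members was not tested.

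**Figure D1:**
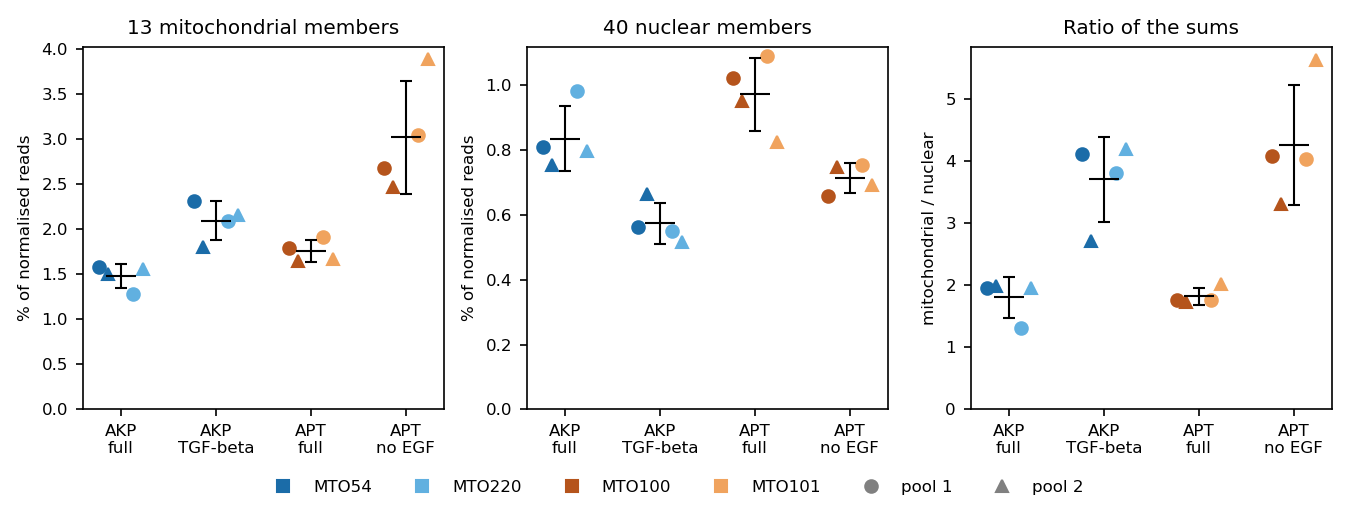
Summed normalised reads of the 13 mitochondrial and the 40 nuclear members as a percentage of each library, and the ratio of the sums; colours give the line, circles pool 1, triangles pool 2, and bars the mean and SD of 4 libraries. The mitochondrial share lies higher and the nuclear share lower in every altered-medium library than in every full-medium library of its genotype.

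Per kilobase of annotated exon, the scale on which genes can be compared, mitochondrial RNAs stood above most nuclear ones. In AKP full medium the level was highest for ATP6 at 73851 ± 27307 normalised reads per kb, COX3 at 61403 ± 15506 and COX2 at 60124 ± 9100 (SD, n = 4), and these 3 did not differ beyond their spread. ND5 (5168 ± 1202) was the lowest mitochondrial member there. Among nuclear members Atp5b, the catalytic subunit of ATP synthase, stood highest at 23689 ± 4136 per kb. Cox4i1, a structural subunit of complex IV, followed at 15895 ± 4249. Sdhd, a membrane anchor of complex II, was lowest at 96.2 ± 27.1 per kb, below its partners Sdha at 2491 ± 273, Sdhb at 2936 ± 1406 and Sdhc at 858 ± 212.

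With TGF-beta in AKP organoids, 25 of the 40 nuclear members fell and none rose, against 25.7% of 13725 genes called lower and 52.6% called either way (limma on log2 of the value plus 1, adjusted p under 0.05). Their median log2 change was -0.57, against 0.02 over all genes tested. Of the 13 mitochondrial members 5 rose and none fell, with a median of 0.48, against 27.0% of genes called higher. The largest nuclear fall was that of Cyc1, the heme subunit of complex III that hands electrons to cytochrome c. With MTO54 alone 12 nuclear members were called lower, against 12.7% of all genes. There 2 of the 13 mitochondrial ones were called higher, near the 12.2% of all genes. With MTO220 alone the counts were 25, against 30.1%, and 6, against 29.7%. Within pool 1 they were 20, against 14.4%, and 6, against 13.6%. Within pool 2 (4 libraries) they were 2, against 6.61%, and 0, against 5.89%, so neither share there was higher than that of all genes. With the pools of a line averaged they were 8, against 8.06%, and 1, against 9.36%, so the mitochondrial share there was no higher than that of all genes. Without the pool 1 full-medium library of MTO54, or without its pool 1 TGF-beta library, 3 mitochondrial members were called (ND2, ND6 and CYTB). Of all genes 25.8% and 23.4% were called higher in these runs, so the mitochondrial share there was no higher than that of all genes.

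Complex I carries NADH's electrons into the chain, and 12 of its 20 nuclear members fell in AKP, against 25.7% of all genes. Ndufs8, an iron-sulfur subunit, stood in full medium at 4478 and 3348 normalised reads in MTO54 (pools 1 and 2) and at 4551 and 2503 in MTO220. With TGF-beta it stood at 1280, 1756, 1384 and 1248 in the same order. The 4 TGF-beta libraries all lay below the full-medium ones, and the log2 change was -1.36 ± 0.20 (SE; adjusted p = 0.000375). Ndufv1, the flavin-bearing subunit that receives electrons from NADH, stood at 5323, 5619, 6711 and 4413 in full medium and at 2098, 2941, 2374 and 2464 with TGF-beta. Again the groups did not overlap, and Ndufv1 changed by -1.15 ± 0.17 (adjusted p = 0.000337). Ndufa10 (-0.93), Ndufb10 (-0.90), Ndufb8 (-0.89), Ndufs1 (-0.72), Ndufa5 (-0.70), Ndufs7 (-0.68), Ndufa9 (-0.59), Ndufv2 (-0.56), Ndufb5 (-0.47) and Ndufab1 (-0.45) were also called on the log2 scale. The other 8 ranged from -0.42 (Ndufs3) to 0.29 (Ndufa2) and did not pass the test.

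Complex II, which oxidises succinate, had all 4 members called lower, against 25.7% of all genes. Sdhb, its iron-sulfur subunit, changed by -1.16 ± 0.20, from between 2009 and 5656 normalised reads to between 945 and 1894. Sdha, the flavoprotein, changed by -0.79 ± 0.13, from 6376 to 7918 down to 4029 to 4267, with no overlap. Sdhc (-0.52) and Sdhd (-0.67), the membrane anchors, were called as well, Sdhd at 65.7 to 157 reads. With the line and pool as a replicate block, 4 calls were lost: Sdhd (adjusted p = 0.0608), Ndufv2 (0.0577), Cox5b (0.0529) and Ndufab1 (0.0733).

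Complex III had 5 of its 6 nuclear members called lower, against 25.7% of all genes. Cyc1 stood at 8329, 8639, 8195 and 6585 normalised reads in full medium (MTO54 pools 1 and 2, then MTO220) and at 3300, 3886, 2428 and 2233 with TGF-beta. The lowest full-medium value was well above the highest TGF-beta value, and the log2 change was -1.45 ± 0.15 (adjusted p = 4.19e-05). Uqcrc1 (-1.03 ± 0.18) and Uqcrc2 (-0.91 ± 0.15), the core proteins, Uqcrq (-0.77) and the Rieske iron-sulfur protein Uqcrfs1 (-0.70) also fell. Uqcrb was not called at -0.20 ± 0.15. Of complex IV, 2 of 7 nuclear members fell, Cox8a (-0.61) and Cox5b (-0.44). This is near the 25.7% of all genes called lower, and shows nothing particular to complex IV. Ndufa4 (0.29 ± 0.18) and Cox6c (0.26 ± 0.18) had values above 0 that did not pass the test. Ndufa4 was called higher at 0.45 (adjusted p = 0.0430) when the pool 1 full-medium library of MTO220 was left out. Cox7b, another complex IV subunit and the nuclear member nearest to no change, stood at 2409, 1601, 2278 and 1792 in full medium and 2076, 2399, 1694 and 1606 with TGF-beta. These groups overlapped, and the change was -0.05 ± 0.18 (adjusted p = 0.813). Atp5b (-0.77) and the stalk subunit Atp5o (-0.83) of complex V were both called lower, and Cycs, cytochrome c itself, was not (-0.10 ± 0.23).

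The mitochondrial members called higher with TGF-beta belonged to complexes I, III and IV. ND6, a membrane subunit of complex I, stood at 3354, 5166, 2989 and 4135 normalised reads in full medium and at 6875, 7522, 7817 and 8660 with TGF-beta. All 4 TGF-beta libraries lay above all full-medium ones, with a log2 change of 1.01 ± 0.19 (adjusted p = 0.00133). The strand of the reads over ND6 is not known. CYTB, the cytochrome b of complex III, went from 18546, 21478, 16323 and 26100 to 44729, 33325, 37947 and 39658, again without overlap. Its change was 0.93 ± 0.19 (adjusted p = 0.00211). ND2, also of complex I, stood at 15102, 10494, 9126 and 11492 and then at 21827, 14821, 19096 and 18770. Its groups overlapped at 1 library each, and it was called at 0.70 ± 0.19 (adjusted p = 0.0109). ND4 (0.80) and COX2 (0.48) were called too. The other 8 were not: ATP6 (0.11), COX3 (-0.07) and ATP8 (-0.18), which neighbour each other on the molecule, and ND1, ND3, ND4L, ND5 and COX1. For ATP6, COX3 and ND3 the pools went opposite ways in both lines. ATP6 changed by -0.24 (MTO54) and -0.15 (MTO220) in pool 1 and by 0.53 and 0.29 in pool 2. COX3 changed by -0.42 and -0.32, and then by 0.33 and 0.11. ND3 changed by -0.50 and -0.29, and then by 1.37 and 0.65.

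Withdrawal of EGF from APT organoids gave 20 nuclear members called lower and none higher, against 21.7% of 14373 genes called lower and 48.5% called either way. Their median log2 change was -0.57, against 0.08 over all genes. Of the mitochondrial members 6 were called higher and none lower, with a median of 0.56, against 26.8% of genes called higher. Scaling to library totals moved the median of all genes to 0.31, left 13 nuclear calls lower, against 14.4% of all genes, and made 1, Cox6c, higher; it turned the split of all calls from 3849 higher and 3120 lower into 5111 and 2081. Without the pool 1 full-medium library of MTO100, or its pool 1 library without EGF, 13 nuclear members were called lower, against 17.8% and 19.7% of all genes, and without the pool 2 full-medium library of MTO101 there were 31, against 23.1%. With MTO101 alone there were 5, against 16.4% of all genes, a nuclear share below that of all genes. With MTO100 alone there were 20, against 16.4%, within pool 1 26, against 17.3%, and within pool 2 6, against 9.21%.

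In complex I, 10 of 20 nuclear members fell without EGF, against 21.7% of all genes. Ndufv1 stood at 5548 and 5092 normalised reads in MTO100 full medium (pools 1 and 2) and at 5946 and 3701 in MTO101. Without EGF it stood at 2317, 2944, 2486 and 2404 in the same order, all below the full-medium range. Its log2 change was -0.98 ± 0.18 (adjusted p = 0.00123). Ndufs8 (-1.18 ± 0.22), Ndufa9 (-0.83), Ndufb10 (-0.81), Ndufb8 (-0.81), Ndufs3 (-0.77), Ndufa10 (-0.77), Ndufs7 (-0.72), Ndufab1 (-0.60) and Ndufs1 (-0.46) were called as well. Ndufv2, an iron-sulfur subunit called lower with TGF-beta, was at 0.19 ± 0.24 here. Of complex II, Sdhb (-0.92) and Sdhc (-0.51) fell, and Sdha (-0.43; adjusted p = 0.0561) and Sdhd (-0.32) did not pass the test.

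Among nuclear members the largest fall without EGF was again in complex III. Cyc1 stood at 8196, 6141, 7106 and 5314 normalised reads in APT full medium and at 2433, 2915, 2793 and 2518 without EGF. No library overlapped, and the change was -1.31 ± 0.17 (adjusted p = 0.000173). Uqcrc1 went from 11848, 9771, 12498 and 8024 to 3885, 5103, 4935 and 4282, also without overlap, a change of -1.20 ± 0.19 (adjusted p = 0.000562). Uqcrfs1 fell by 0.72 on the log2 scale. Uqcrc2 (-0.33), Uqcrq (-0.61) and Uqcrb (-0.25) were not called. In complex IV Cox5b (-0.67) and Cox8a (-0.59) fell, and Cox4i1 (-0.68; adjusted p = 0.0575) was called (adjusted p = 0.0320) with the line and pool as a replicate block. Ndufa4, first described in complex I and now placed in complex IV, was the nuclear member nearest to no change. It stood at 5352, 4350, 6849 and 3314 and then at 3977, 5096, 4421 and 4235, ranges that overlapped, with a change of -0.12 ± 0.22 (adjusted p = 0.678). Cox6c stood at 0.36 ± 0.22 (adjusted p = 0.192). Without EGF the call list also held Atp5o (-1.25 ± 0.24), Atp5b (-0.80 ± 0.19) and Cycs (-0.64 ± 0.23).

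Among mitochondrial members, ND4, a proton-pumping subunit of complex I, stood at 14738, 14373, 14039 and 16419 normalised reads in APT full medium and at 30257, 26954, 37556 and 50226 without EGF. Every library without EGF was above every full-medium library, and ND4 changed by 1.24 ± 0.20 (adjusted p = 0.000497). ND6, whose reads may come from either strand, went from 3365, 5162, 4642 and 3395 to 8602, 13399, 10223 and 18965, a change of 1.59 ± 0.26 (adjusted p = 0.000559). CYTB went from 24098, 21296, 26902 and 27879 to 42026, 40335, 63041 and 77184, a change of 1.10 ± 0.19 (adjusted p = 0.000870). For all 3 genes the highest value was that of MTO101, pool 2. ND5 (1.08), ND4L (0.89) and COX1 (0.76), the catalytic subunit of complex IV, rose too. ND3 (0.05), ATP6 (0.10), COX3 (0.12) and ATP8 (-0.08) were not called, and COX2 (0.56, adjusted p = 0.0508) and ND2 (0.51, adjusted p = 0.0561) missed the threshold. In each line ND3, ATP6, COX3 and ATP8 were lower without EGF in pool 1 and higher in pool 2.

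The 2 responses share no library, and across members their log2 changes had r = 0.693 among the 40 nuclear and r = 0.866 among the 13 mitochondrial members, as a description. Called lower in both were 18 nuclear members, 7 in AKP alone, 2 in APT alone and 13 in neither. Higher in both were 3 mitochondrial members: ND4, ND6 and CYTB. Neither these overlaps nor r were computed over all genes, so they show nothing particular to the members. Of all genes 52.6% (AKP) and 48.5% (APT) were called either way. A test of the difference between the 2 responses called none of the 53 members, against 22.2% of 15087 genes (11.7% higher and 10.5% lower). At an unadjusted p under 0.05 were 2 nuclear members and no mitochondrial one, against 5151 of the 15087 genes. Scaling to library totals called 2 nuclear members there: Ndufv2, at 0.86, and Uqcrc2, at 0.69 (the APT minus the AKP change). Leaving out the pool 1 full-medium library of MTO220 called ND5, at 0.88. The SE of a member's difference ran from 0.19 (Sdha) to 0.60 (ND3), so a member that was not called may still differ between the responses.

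**Figure D2:**
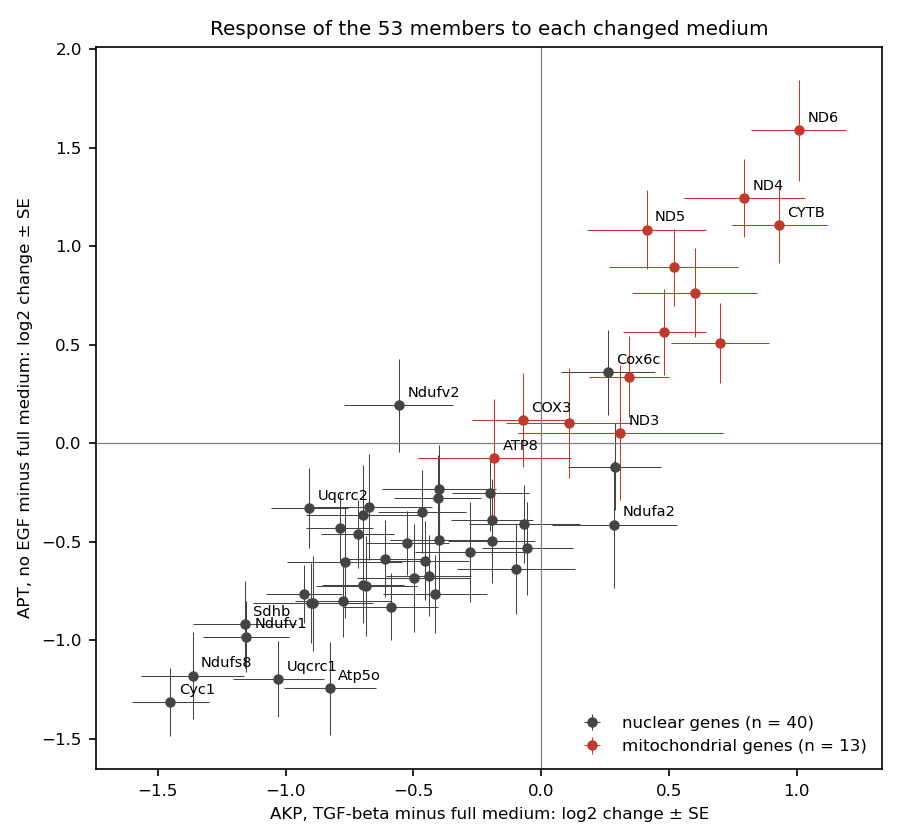
Log2 change of each of the 53 members with TGF-beta in AKP organoids (x axis) and without EGF in APT organoids (y axis), bars being SE of the fit over 8 libraries. Cyc1, Ndufs8 and Ndufv1 lie at the lower left and ND6, ND4 and CYTB at the upper right, with ATP8 and COX3 near 0.

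Lines of a genotype were compared for their responses. No member was called in MTO220 against MTO54, where 8.2% of genes were called (5.49% higher and 2.72% lower). Nor was any in MTO101 against MTO100, where 2.34% were (1.09% and 1.26%). In these, 2 and 0 nuclear members had an unadjusted p under 0.05, and no mitochondrial member in either. Of all genes 3203 of 13725 and 2161 of 14373 had such a p. Without the pool 1 full-medium library of MTO54, Cycs was called in the first of these at -1.21 (adjusted p = 0.0286). APT and AKP in full medium, compared over 2 lines each, gave no called gene of 13898 (0.0%) by limma or by edgeR, 740 by DESeq2 and 1480 at an unadjusted p under 0.05. Among members 1, Atp5o, had an unadjusted p under 0.05, at 0.38 ± 0.14 (APT minus AKP). Medians were 0.19 for nuclear and 0.23 for mitochondrial members, and single libraries moved them. The nuclear median was 0.45 without the pool 2 library of MTO101, 0.35 without the pool 1 library of MTO220, 0.08 without its pool 2 library and 0.05 without the pool 1 library of MTO101. The mitochondrial median was 0.03 without the pool 1 library of MTO100, 0.08 without that of MTO101, 0.11 without the pool 2 library of MTO54 and 0.13 without the pool 1 library of MTO220.

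Each pair of libraries of a line and pool gives its own response. Median nuclear log2 changes in pool 1 were -0.67 (MTO54), -0.96 (MTO220), -0.82 (MTO100) and -0.94 (MTO101). In pool 2 they were -0.09, -0.50, -0.44 and -0.19, smaller in all 4 lines. Mitochondrial medians for the same lines were 0.58, 0.96, 0.45 and 0.31 in pool 1, and 0.12, 0.43, 0.49 and 1.18 in pool 2. In pool 1 of every line, ATP8, ATP6, COX3 and ND3 were lower in the altered medium than in full medium. In all 4 pairs of their genotype, 24 nuclear members were lower in AKP and 25 in APT, and none was higher in all 4. Lower in all 8 pairs were 18 nuclear members, among them all 4 of complex II with Cyc1, Ndufv1 and Atp5b, and ND2, ND6, CYTB and COX2 were higher in all 8. Of the mitochondrial members 4 were higher in all 4 AKP pairs and 9 in all 4 APT pairs. These counts over pairs were not made for all genes, so they show nothing particular to the members. The test of the difference between pools in the response called none of the 53 members and none of 15087 genes (0.0%). At an unadjusted p under 0.05 were 24 nuclear and 4 mitochondrial members, against 2447 of the 15087 genes.

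**Figure D3:**
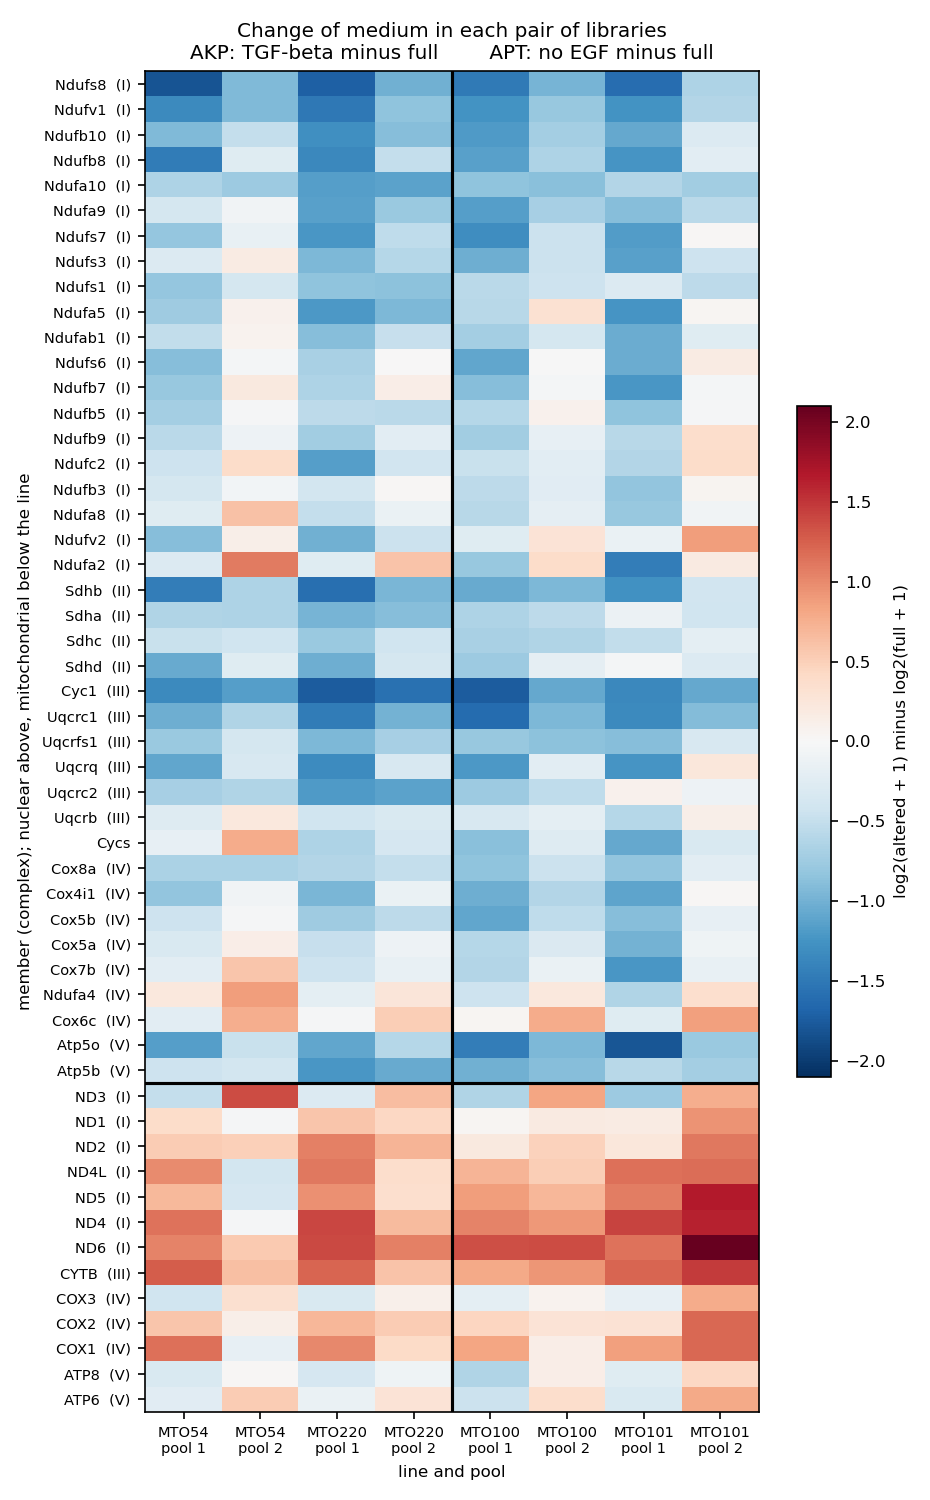
Log2 change of each member between the 2 media within each line and pool, with nuclear members above and mitochondrial members below the horizontal line and their complex in brackets. Pool 2 columns are paler in the nuclear block, and Cyc1, Ndufs8 and Uqcrc1 are lower in all 8 pairs.

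The pools were also compared in each medium apart, in a comparison added after the data were seen; since the difference between media was not called, a count in one medium and not the other is no difference between them. In full medium pool 2 was called lower than pool 1 for 11 of the 40 nuclear members, and none higher, against 5.54% of 13725 genes called lower and 5.3% higher (10.8% in all), with a line term in the fit. The median over the 40 was -0.45. The called members were Ndufa2 (-0.80), Cycs (-0.76), Ndufv2 (-0.75), Ndufb8 (-0.75), Ndufa5 (-0.67), Ndufs8 (-0.64), Cox7b (-0.63), Ndufs6 (-0.62), Cox6c (-0.61), Ndufc2 (-0.60) and Ndufa4 (-0.57). Without MTO220 the count was 1, against 1.21% of all genes, without MTO101 it was 2, against 0.849%, and with scaling to library totals it was 6, against 2.45%. In the altered media no member and none of 14498 genes was called between pools (0.0%), with 7 nuclear and 2 mitochondrial members at an unadjusted p under 0.05. Of the 14498 genes 2376 had such a p, so these counts show nothing particular to the members. Without MTO220, 3.31% of 13967 genes were called higher there and 2.36% lower, among them 5 nuclear members higher, 1 mitochondrial member higher and 1 lower. Pool and passage are the same division of these libraries and cannot be told apart.

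Mitochondrial members called between the pools of full medium lay side by side on the molecule. The 4 called lower in pool 2, ATP8, ATP6, COX3 and ND3, are consecutive among protein genes. ND3, a small subunit of complex I, stood at 17055, 13605, 14491 and 19836 normalised reads in pool 1 (MTO54, MTO220, MTO100, MTO101) and at 4185, 5504, 5070 and 7506 in pool 2. The pools did not overlap, and ND3 changed by -1.56 ± 0.16 (adjusted p = 0.00274). In the altered media ND3 stood at 12076, 11134, 9384 and 11669 in pool 1 and at 10813, 8649, 9034 and 12783 in pool 2. These values lay between those of the full-medium pools. ATP8 (-0.97 ± 0.19), ATP6 (-0.91 ± 0.18) and COX3 (-0.66 ± 0.17) were lower in pool 2 of full medium in all 4 lines. In contrast, COX1, upstream of them, was at 0.57 and not called. Of these 4, ATP6 and COX3 have a nuclear copy without a mismatch, ND3 one with 1 mismatch and ATP8 none, while ND4 and ND4L, which have such copies, were not called; the part of the copies was not tested. Leaving out any single line left 3 of the 13 called lower.

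**Figure D4:**
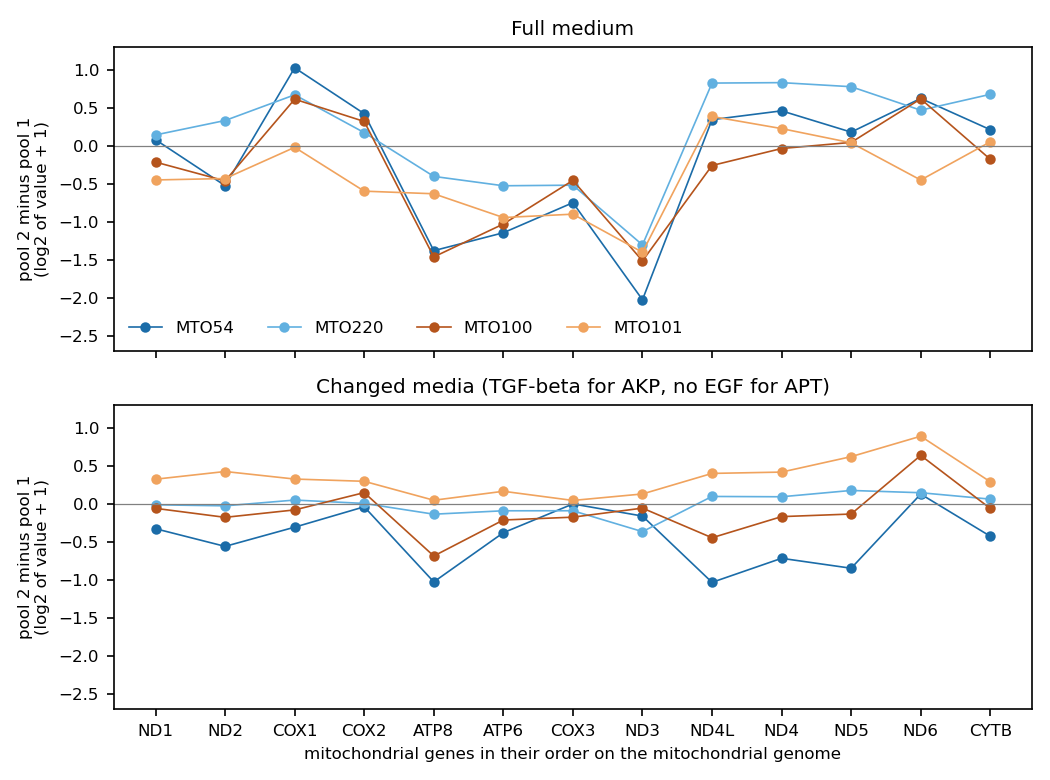
Log2 difference of pool 2 from pool 1 for the 13 mitochondrial members in genome order, in full medium (top) and in the altered media (bottom), with a line for each organoid line. In full medium ATP8, ATP6, COX3 and ND3 lie below 0 in all 4 lines, ND3 between -1.31 and -2.03.

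Other genes of the pathway, from lists chosen with earlier results known, were counted in the same fits, in which 25.7% of all genes were called lower in AKP and 21.7% in APT, and 27.0% and 26.8% higher. Genes of the mitochondrial ribosome, which translates the 13 mitochondrial members, fell in 40 of 78 in AKP and 62 of 78 in APT, with none higher. Mrpl4 changed by -1.62 ± 0.21 and -1.41 ± 0.17, and Mrps27 by -1.19 ± 0.18 and -1.42 ± 0.17. Import and chaperone genes fell in 15 and 19 of 22, among them the channel Tomm40 (-0.92 and -1.23) and the translocase subunit Timm50 (-1.11 and -1.56). Citric acid cycle and pyruvate entry genes fell in 16 and 11 of 19, with 1 higher in APT. Fumarase Fh1 changed by -1.20 and -0.81, and the pyruvate dehydrogenase subunit Pdha1 by -1.07 and -0.76. Of 13 coenzyme Q genes 9 fell and 1 rose in AKP, and 6 fell and none rose in APT. Coq5, a methyltransferase of that synthesis, changed by -1.45 and -0.80, while Coq10b, a coenzyme Q binding protein, rose by 1.70 in AKP.

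Of 16 further complex I subunits 4 were lower in AKP, and in APT 3 were lower and 1, Ndufa1, was higher at 0.86. These are near the 25.7% and 21.7% of all genes called lower, and show nothing particular to these subunits. Of 16 further complex V genes 6 and 7 were lower, among them Atp5g1 (-0.97 and -1.24), a gene for the rotor ring. None of 2 tested complex III and 5 complex IV subunits was called in either. Assembly factors fell in 18 of 46 in AKP and 15 of 46 in APT, with 2 higher in each. Bcs1l, which inserts the Rieske protein into complex III, changed by -1.34 and -1.15, and Cox10, needed for the heme of complex IV, by -1.09 and -1.06. Of the 8 tissue or hypoxia isoforms 1 was tested and not called.

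**Figure D5:**
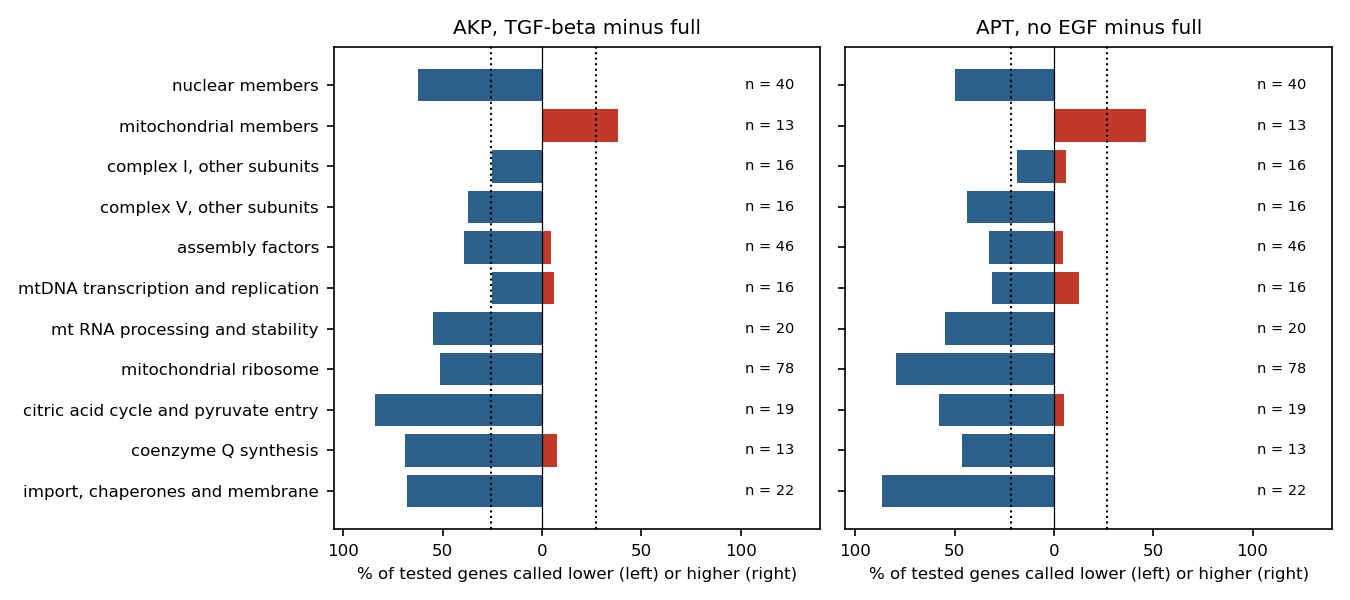
Percentage of tested genes called lower (left, blue) or higher (right, red) among the members and other lists in each medium comparison, dotted lines marking the same over all genes tested. The mitochondrial members are the group with calls higher and none lower in both panels.

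Of 20 genes for the processing and stability of mitochondrial RNA 11 fell in each genotype and none rose, against 25.7% (AKP) and 21.7% (APT) of all genes called lower. Lrpprc, which stabilises mitochondrial messages, changed by -0.87 ± 0.15 in AKP, and Tbrg4, an RNA-binding protein, by -1.09 ± 0.17 in APT. Of 16 genes for mitochondrial DNA transcription and replication, 4 fell and 1 rose in AKP, near the share of all genes called lower, and 5 fell and 2 rose in APT. Polrmt, the mitochondrial RNA polymerase, changed by -0.64 ± 0.21 and -0.73 ± 0.17. Tfb1m, a methyltransferase of mitochondrial ribosomal RNA, changed by -1.34 ± 0.20 in AKP, and the difference of its responses was called at 0.98 ± 0.25 (adjusted p = 0.0111; APT minus AKP). Rrm2b, a ribonucleotide reductase subunit that supplies nucleotides for mitochondrial DNA, rose by 0.91 ± 0.22 and 1.43 ± 0.20. The 2 mitochondrial ribosomal RNAs were not called in either genotype.

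Of 9 regulators of nuclear respiratory genes 4 fell in AKP and 5 in APT, against 25.7% and 21.7% of all genes, with none higher. Ppargc1a, the coactivator PGC-1alpha, stood at 66.6 to 173 normalised reads in AKP full medium and 0.950 to 9.94 with TGF-beta. In APT it stood at 12.7 to 64.7 and 40.8 to 68.8. The AKP groups did not overlap, at a log2 change of -4.41 ± 0.32 (adjusted p = 5.36e-06) that at such low reads depends on the added 1, and the APT change exceeded it by 5.29 ± 0.60 (adjusted p = 2.11e-05). Ppargc1b, its relative, fell in both, at -3.10 ± 0.28 and -0.91 ± 0.23, from a mean of 129 ± 47.4 to 13.4 ± 0.573 reads in AKP (SD, n = 4) and from 178 ± 76.4 to 95.8 ± 45.3 in APT. The difference between these falls was 2.19 ± 0.33 (adjusted p = 0.000246). Nrf1, a factor that binds respiratory gene promoters, changed by -0.43 and -0.61, and the related coactivator Pprc1 by -0.68 and -0.76. Myc was called in APT, at -0.94 ± 0.15.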

How the data were processed

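The authors deposited 1 table of 16 libraries by Entrez gene whose signal values had been made by dividing gene reads by a size factor of each library, as the values show. Per the submitters' processing notes, STAR 2.3.0e, DESeq2 1.22.1 and mm10 were named, without roles. Values were whole multiples of a step (within 0.001 reads in 100% of values), which gave reads back as whole counts. Of 27179 IDs, 93.0% matched a symbol (RefSeq, GRCm38.p6).

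The main test was limma 3.58.1 (trend, robust) on log2(value + 1), two-sided, with a line term, Benjamini-Hochberg adjustment over every gene whose value reached 10 in 4 libraries of the comparison, called under 0.05; fold changes of low genes are understated. For genotypes, pools were averaged and 2 lines compared with 2. Alternatives included edgeR 4.0.16 and DESeq2 1.42.0 on recovered reads, other scalings, filters, pseudocounts and left-out libraries (R 4.3.3). On simulated data, 98% (AKP) and 96% (APT) of changes of log2 size 1 were called, and 28% and 44% of size 0.6. The simulation changed 100 genes of each size among 14063 (AKP) and 14643 (APT), with the same spread for every gene and no difference between lines. In the data 52.6% and 48.5% of genes were called, so these percentages do not give the share missed here.

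Same-numbered pools share line and passage by the labels, so they pair libraries; the pool difference in one medium correlated with that in the other at 0.06 (MTO54), 0.29, 0.21 and 0.17 (MTO101). Pseudogenes were aligned with blastn 2.17.0 (GENCODE M21). Genes described in full had the smallest p of their genome, 3 per comparison, or were nearest to 0; list genes were among the 4 smallest p. Members and lists were chosen with earlier results of these data known. Counting intervals are not given; no molecular identifiers were used. One item of the lines' genotypes is not reported here.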

Additional observations from a re-analysis of the deposited data

Results flagged for a closer look

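The ratio of the mitochondrial to the nuclear sum had a library far from the other 3 in both full-medium groups. In AKP the pool 1 library of MTO220 stood at 1.31, below 1.96 to 1.99 in the others. In APT the pool 2 library of MTO101 stood at 2.02, above 1.73 to 1.76. Of 40 sets of 4 values looked at, these 2 were set apart, and chance sets apart about 1 in 20.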

How the results depend on the processing

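No called member changed direction under any alternative run. The median change stayed between -0.79 and -0.32 (nuclear) and 0.32 and 0.80 (mitochondrial) in AKP, and between -0.89 and -0.31 and 0.37 and 0.81 in APT. In AKP, nuclear calls lower were 8 with averaged pools, 12 with MTO54 alone and 2 within pool 2, and mitochondrial calls higher were 1, 2 and 0. In APT, nuclear calls lower were 13 with scaling to library or nuclear totals, 5 with MTO101 alone and 6 within pool 2, and 1 (Cox6c) was higher with each scaling and within pool 2. Both scalings called 2 nuclear members higher in the difference of responses. Between pools in full medium, nuclear calls lower were 6 with library totals, 1 without MTO220 and 2 without MTO101, and 1 mitochondrial member was called higher with library totals or without MTO101; in altered media without MTO220, 5 nuclear members were higher, and 1 mitochondrial member was higher and 1 lower. Averaging, single lines and single pools use fewer libraries; otherwise the cause was not tested.

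With 1 library left out, AKP nuclear calls were 17 to 27 lower and 0 to 1 higher, and mitochondrial calls 3 to 7 higher. The runs with 3 had 25.8% and 23.4% of all genes called higher. APT nuclear calls were 13 to 31 lower and 0 to 1 higher. The MTO220 against MTO54 response had 0 to 1 nuclear calls lower, and the difference of responses 0 to 1 nuclear and 0 to 1 mitochondrial calls higher. Between pools, with a line left out, full medium gave 1 to 15 nuclear calls lower and 0 to 1 mitochondrial calls higher, and altered media 0 to 5 nuclear calls higher and 0 to 1 mitochondrial calls higher and lower. Under the replicate block, AKP had 21 nuclear calls lower and 5 mitochondrial calls higher, and APT 21 and 6; beside the 4 AKP calls lost it gained 1 in APT (Cox4i1, adjusted p = 0.0320), and no other member's call changed in either comparison. Changes near 0.6 on the log2 scale were often missed in simulated data with far fewer changed genes than were called here. The share missed in these comparisons is not known.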
